A study of Homo sapiens with 12 samples.

Results

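Expression of the transcription factors that set the osteoblast lineage was examined in SaOS-2, an established human osteosarcoma cell line with osteoblast features, and in clones of it that were stably transfected with CD99. The members were the probe sets that name RUNX1, RUNX2, SP7, DLX3, DLX5, DLX6, MSX1, MSX2 or TWIST1 and no other gene, 18 of the 54675 probe sets of an Affymetrix array that covers most human genes. They covered 8 of the 9 genes, among 19775 genes that such probe sets name in all: RUNX2 had 6 probe sets, DLX6 and MSX2 had 3 each, MSX1 had 2, and SP7, DLX3, DLX5 and TWIST1 had 1 each. All 13 probe sets that name RUNX1 also name other genes, so RUNX1 is not reported. Total RNA was taken at days 0, 7 and 14 from cells labelled Sa/CD99, as the clones wt22 and wt36, and from parental SaOS-2, as replicates 1 and 2. This gave 6 groups of 2 arrays and 12 arrays in all. Day 0 is the basal state, and days 7 and 14 are days in osteogenic medium, which has less serum and holds ascorbic acid and beta-glycerophosphate. Time and medium therefore cannot be told apart. The transfectants were made by calcium phosphate transfection and kept under neomycin selection, and each of the 2 is a single clone with 1 array per day. Nothing in the labels says that the parental replicates were separate cultures, so their spread, and the p-values that rest on it, may be technical.

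CD99, a membrane glycoprotein and the transfected gene, was read by a pair of probe sets. Probe set 201028_s_at ranged from 6.67 to 8.88 (median 7.48) on the 6 arrays labelled Sa/CD99 and from 11.26 to 11.88 (median 11.65) on the 6 SaOS-2 arrays, in log2 units of RMA, the array summary the authors used. Probe set 201029_s_at ranged from 12.32 to 12.74 on arrays labelled Sa/CD99 and from 12.29 to 12.66 on SaOS-2 arrays. The first of these goes against the label and the second separates the lines by less than their spread, so each direction between the lines below is that of arrays labelled Sa/CD99 relative to SaOS-2. The study also checked CD99 in these samples by real-time PCR, which is not analysed here. Of 8 osteoblast markers measured, ALPL, SPARC, COL1A1 and COL1A2 were above a signal of 100 on all arrays, and IBSP on 10 arrays. SPP1, PHEX and DMP1 were at or below 100 on every array. The summed signal of the 8 markers ranged from 14470 to 27880 on arrays labelled Sa/CD99 and from 16080 to 21210 on SaOS-2 arrays. Of the markers of other cell types, SOX9 (chondrocyte), PPARG (adipocyte) and EPCAM (epithelium) were above 100 on all arrays, while the other 3 genes of each of these lists were at or below 100 on every array, as were 3 of 4 of skeletal muscle and 3 of 3 of blood. The summed chondrocyte signal ranged from 323 to 751 on arrays labelled Sa/CD99 and from 520 to 964 on SaOS-2 arrays. The part of other cell types in the results was not tested. The 2 clones differed more from each other than the parental arrays did: across the tested probe sets the SD of the difference was 0.39 to 0.42 between clones and 0.12 to 0.14 between parental replicates.

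RUNX2 is the factor that commits mesenchymal progenitors to the osteoblast lineage. It binds DNA with its partner CBFB, and mice that lack it form no bone. SP7, also called osterix, is a zinc finger factor that acts after RUNX2 and is needed for the osteoblast to mature. The homeodomain factors DLX3, DLX5 and DLX6 are induced by bone morphogenetic proteins and favour osteoblast genes. MSX1 and MSX2 bind similar TAAT-containing sites, often as repressors, and mark proliferating progenitors. TWIST1, a basic helix-loop-helix factor, holds RUNX2 in check in early progenitors.

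Of the genes whose probe sets were called over time, RUNX2, MSX1, MSX2 and DLX6 have an entry among the RefSeq promoters (GRCh38.p14). Those of RUNX2, whose probe sets differed and which has 2 entries, and of MSX2 are shown, chosen after their motif matches were seen. Each sequence runs from 250 bases before the start site to 50 bases from it on, 300 bases in all, on the plus strand. The windows are chr6:45328080-45328379 (RUNX2 distal), chr6:45422025-45422324 (RUNX2 proximal) and chr5:174724332-174724631 (MSX2). Capitals mark matches, on either strand, to the RUNX core TGTGGT and to the homeodomain core TAATTN, which did not overlap each other in these windows.
RUNX2 distal promoter: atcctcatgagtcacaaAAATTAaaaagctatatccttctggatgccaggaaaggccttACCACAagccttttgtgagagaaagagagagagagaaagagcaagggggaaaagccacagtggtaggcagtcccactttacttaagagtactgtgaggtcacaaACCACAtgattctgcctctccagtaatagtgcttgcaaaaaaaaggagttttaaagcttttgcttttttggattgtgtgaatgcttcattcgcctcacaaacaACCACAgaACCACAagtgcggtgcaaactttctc
RUNX2 proximal promoter: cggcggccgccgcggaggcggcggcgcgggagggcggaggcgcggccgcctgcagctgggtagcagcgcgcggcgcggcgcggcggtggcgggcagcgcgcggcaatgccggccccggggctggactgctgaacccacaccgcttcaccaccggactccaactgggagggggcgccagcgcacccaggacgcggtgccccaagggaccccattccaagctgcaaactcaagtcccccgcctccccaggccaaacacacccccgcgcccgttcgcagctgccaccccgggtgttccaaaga
MSX2 promoter: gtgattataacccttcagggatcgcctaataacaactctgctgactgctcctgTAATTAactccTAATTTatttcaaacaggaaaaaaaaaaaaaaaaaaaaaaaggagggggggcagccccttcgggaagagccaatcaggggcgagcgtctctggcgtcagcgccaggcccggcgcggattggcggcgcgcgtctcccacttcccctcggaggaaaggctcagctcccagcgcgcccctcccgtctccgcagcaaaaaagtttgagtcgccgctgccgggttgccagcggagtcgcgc
The distal promoter of RUNX2, from which the longer bone isoform starts, held 4 RUNX matches that begin at positions -191, -87, 17 and 25, and 1 homeodomain match at -233. The proximal promoter held neither. The MSX2 promoter held 2 homeodomain matches, at -197 and -186, and no RUNX match. The MSX1 and DLX6 promoters, which are not shown, held neither. Of 35116 promoters of the same length, 13.07% held the RUNX core and 24.72% the homeodomain core at least once, so 1 match of either kind is not rare. These shares do not give how often a promoter holds 4 or 2 matches. The isoforms that each RUNX2 probe set reads are not given in the sources used here, so no probe set is tied to either promoter.

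A probe set was tested when it passed the study's filters on signal and spread, and a change of at least 1.5-fold with an adjusted p (limma, Benjamini-Hochberg) of at most 0.05 is written as called. Of the 18 member probe sets 13 were tested. RUNX2 221283_at, DLX6 221289_at, MSX1 228473_at and MSX2 205556_at were at or below a signal of 100 (6.64 in log2) on at least 9 arrays. TWIST1 213943_at was above 100 on all arrays, but its interquartile range of 0.19 was under the median of 0.22 over all probe sets. Levels are given per probe set and are not compared between probe sets.

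**Figure D1:**
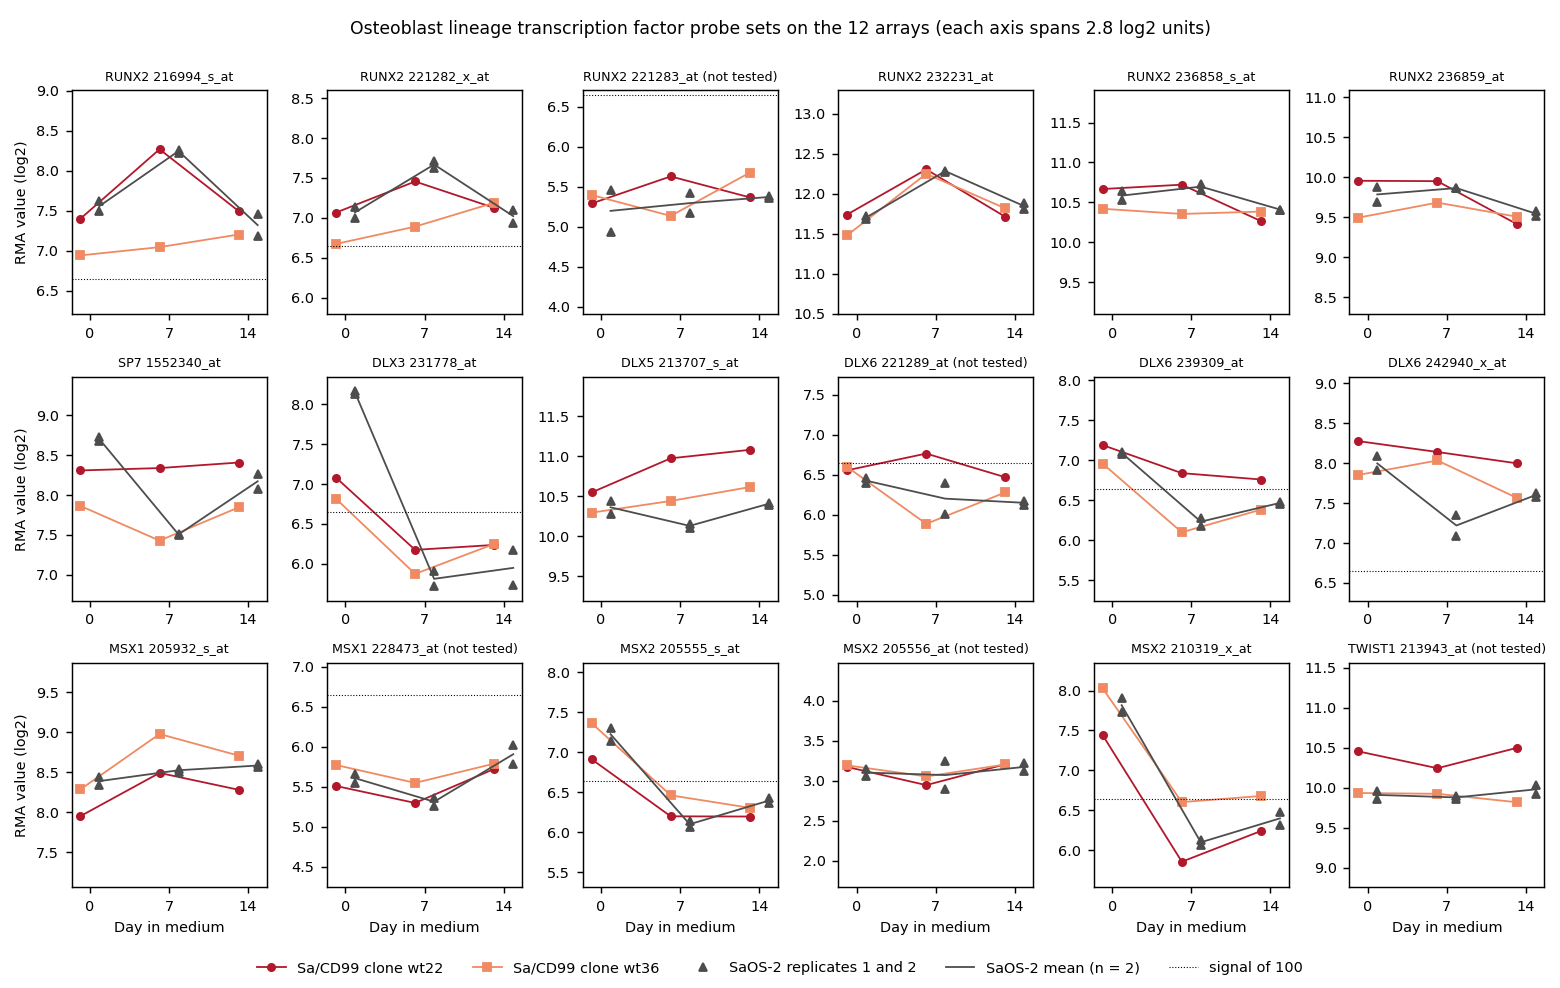
RMA values (log2, y axis) against day in osteogenic medium (x axis) for the 18 member probe sets, with clones wt22 and wt36 of Sa/CD99 as lines, SaOS-2 replicates as triangles with a line through their mean, and a dotted line at a signal of 100. DLX3 at day 0 was 7.08 and 6.82 on arrays labelled Sa/CD99 and 8.13 and 8.16 on SaOS-2 arrays, and both MSX2 probe sets that were tested lie lower at days 7 and 14 than at day 0 in both lines.

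Between the lines 1 member was called on day 0, 1 on day 7 and none on day 14. DLX3 was lower on arrays labelled Sa/CD99 at day 0, and DLX6 was higher there at day 7 by 1 of its 2 tested probe sets. On day 0 the call was 1 of 13 members (7.69%) in the lower direction, against 1.37% of all 12894 tested probe sets. On day 7 it was 1 of 13 (7.69%) in the higher direction, against 0.380% of all tested. On day 14 limma called 0 of 13, with 0 members at an unadjusted p under 0.05, against 1.46% of all tested called in either direction. The median difference of the 13 members was -0.09, 0.21 and 0.03 on days 0, 7 and 14, against -0.01, -0.03 and -0.01 over all tested probe sets.

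**Figure D2:**
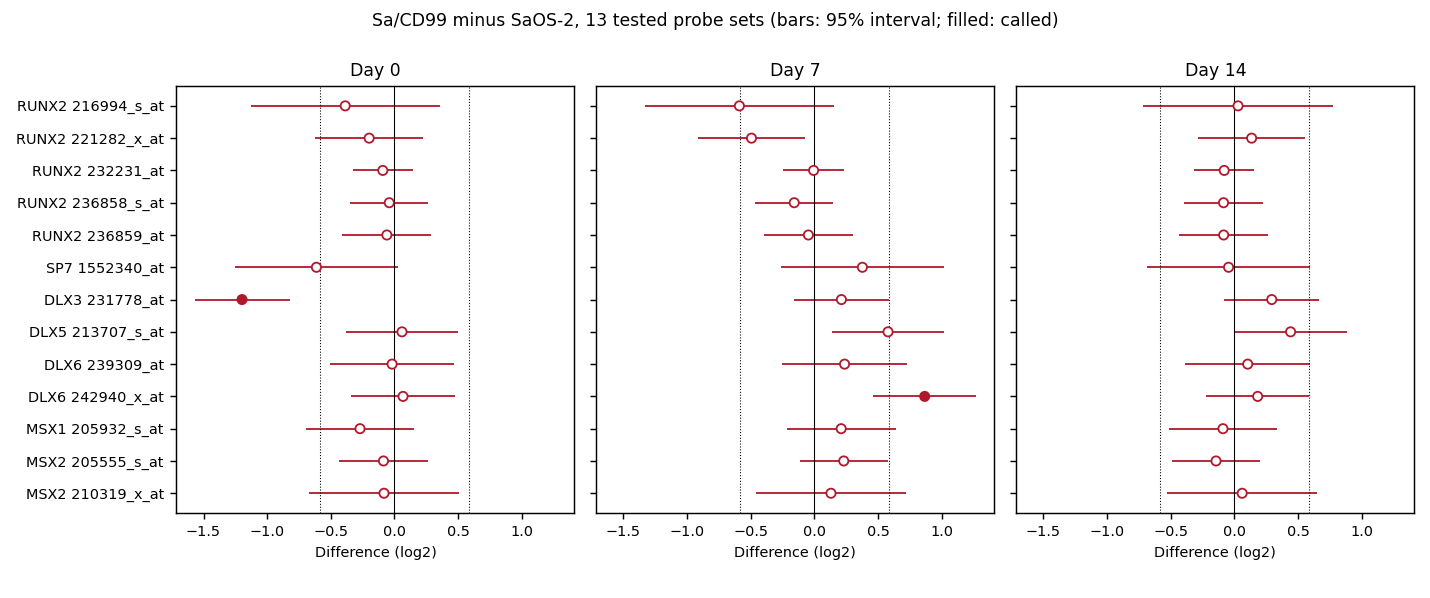
Difference of arrays labelled Sa/CD99 minus SaOS-2 arrays (log2, x axis) for the 13 tested probe sets on each day, with 95% intervals, filled points for called differences and dotted lines at 1.5-fold. Only DLX3 at day 0 (-1.20) and DLX6 242940_x_at at day 7 (0.87) are filled.

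Over time more of the members were called, as were more of all tested probe sets. In either direction 5 and 7 of 13 members were called by day 7 (38.46% and 53.85%), against 18.16% and 21.44% of all tested. By day 14 these were 3 and 3 of 13 (23.08% each), against 19.35% and 14.88%. Arrays labelled Sa/CD99 come first in each pair. DLX3, both tested MSX2 probe sets and DLX6 239309_at passed the signal filter through their day 0 arrays. The counts of falls from day 0 over the tested members therefore describe a set that this filter favoured. From day 0 to day 7 on arrays labelled Sa/CD99, 2 of 13 rose (15.4%, against 10.4% of all tested) and 3 of 13 fell (23.1%, against 7.78%). In SaOS-2 arrays 1 of 13 rose by day 7 (7.69%, against 12.8%) and 6 of 13 fell (46.2%, against 8.63%). By day 14 limma called 0 of the 13 higher in either line, with 0 higher at an unadjusted p under 0.05, against 6.39% of all tested on arrays labelled Sa/CD99 and 6.03% in SaOS-2 arrays. At day 14 against day 0, 3 of 13 had fallen on arrays labelled Sa/CD99 (23.1%, against 13.0% of all tested) and 3 of 13 in SaOS-2 arrays (23.1%, against 8.86%). The median change of the 13 members by day 7 was 0.02 on arrays labelled Sa/CD99 and -0.23 in SaOS-2 arrays. By day 14 it was -0.22 on arrays labelled Sa/CD99 and -0.24 in SaOS-2 arrays. Over all tested probe sets these medians were -0.01 and 0.00 by day 7 and -0.09 and -0.11 by day 14, with arrays labelled Sa/CD99 first in each pair. With no filter, the fit covered all 18 member probe sets and 54613 in all. The signal filter passed 14 of the 18 but 18677 of the 54613. More of the whole is therefore dim, and the shares with no filter do not compare like with like. By day 7 it called 3 of 18 lower on arrays labelled Sa/CD99 (16.7%, against 2.30% of all) and 6 of 18 in SaOS-2 arrays (33.3%, against 2.59%). By day 14 it called 3 of 18 lower on arrays labelled Sa/CD99 (16.7%, against 3.41%) and 3 of 18 in SaOS-2 arrays (16.7%, against 2.62%). The 3 were DLX3, MSX2 205555_s_at and MSX2 210319_x_at each time, and the 6 were these with SP7, DLX6 239309_at and DLX6 242940_x_at.

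**Figure D3:**
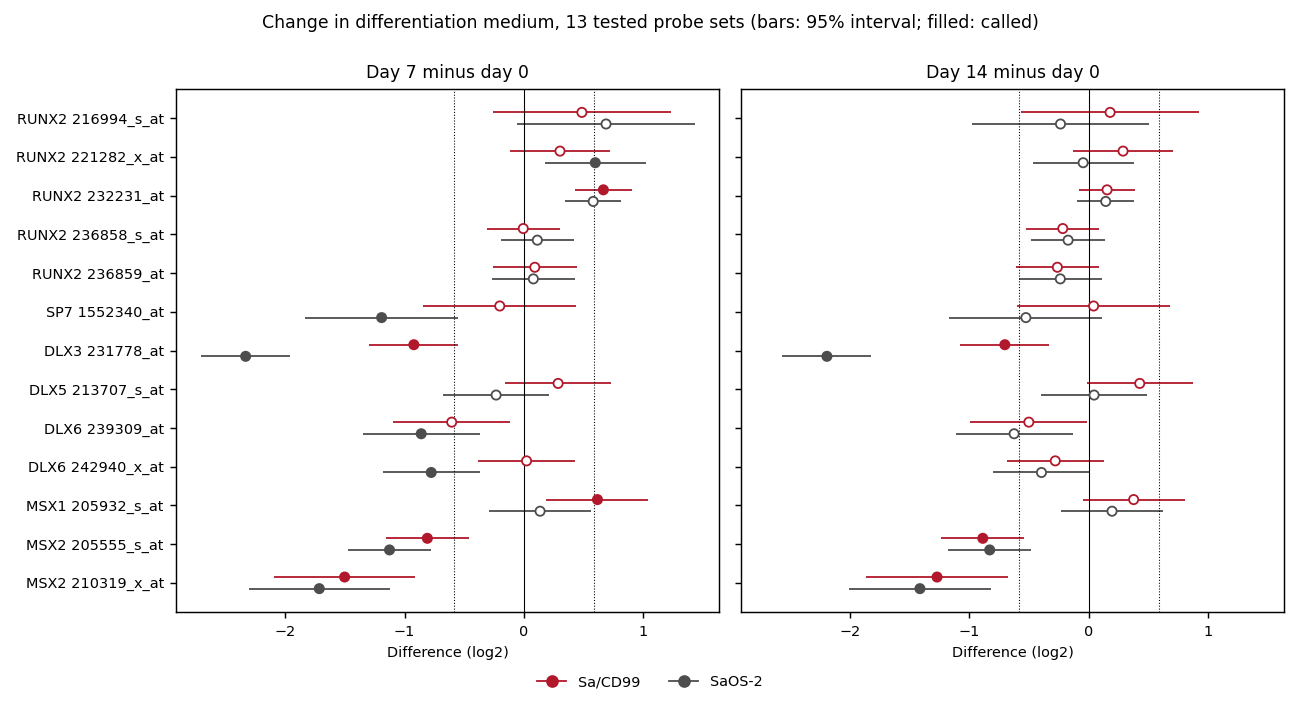
Change from day 0 at days 7 and 14 (log2, x axis) for the 13 tested probe sets, on arrays labelled Sa/CD99 (red, upper point) and in SaOS-2 arrays (grey, lower point), with 95% intervals, filled points for called changes and dotted lines at 1.5-fold. DLX3 fell by 0.92 on arrays labelled Sa/CD99 and fell by 2.33 in SaOS-2 arrays at day 7, and both MSX2 probe sets are filled below 0 in both lines on both days.

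RUNX2 gave different answers by probe set. Probe set 232231_at rose by day 7 and was back near its start by day 14 in both lines. Its values at days 0, 7 and 14 were 11.74, 12.31 and 11.71 in clone wt22 and 11.48, 12.25 and 11.82 in clone wt36. In SaOS-2 they were 11.69, 12.28 and 11.81 in replicate 1 and 11.72, 12.29 and 11.88 in replicate 2. All 4 arrays of day 7 lay above all 8 of the other days. The rise by day 7 was 0.67 ± 0.10 (SE) on arrays labelled Sa/CD99 (1.59-fold, adjusted p = 0.00178). In SaOS-2 the change was 0.58 ± 0.10 (adjusted p = 0.00314), at 1.496-fold just under the fold threshold and so not called. From day 7 to day 14 it differed by -0.51 on arrays labelled Sa/CD99 (adjusted p = 0.00645) and by -0.44 in SaOS-2 (adjusted p = 0.00904), both under 1.5-fold. The lines differed by -0.09, -0.01 and -0.08 on days 0, 7 and 14, and the interval at day 7 was -0.24 to 0.23.

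Probe sets 216994_s_at and 221282_x_at of RUNX2 followed each other over the 12 arrays (Pearson r = 0.93, as a description). Values of 216994_s_at at days 0, 7 and 14 were 7.40, 8.27 and 7.49 in clone wt22 and 6.94, 7.04 and 7.20 in clone wt36. The SaOS-2 values were 7.61, 8.23 and 7.45 in replicate 1 and 7.50, 8.26 and 7.18 in replicate 2. Clone wt22 at day 7 was thus level with the parental arrays, and clone wt36 was lower than both. At day 7 the lines differed by -0.59 ± 0.33 (adjusted p = 0.33), which did not pass. Without clone wt22 at day 7 the difference was -1.20, which rests on clone wt36 as the only Sa/CD99 array of that day. In SaOS-2 this probe set fell by 0.93 between days 7 and 14 (adjusted p = 0.0418), a call lost without any 1 of the 6 SaOS-2 arrays. Its change of 0.69 by day 7 in SaOS-2 was not called in the fit of all arrays (adjusted p = 0.12) and was called in that of the SaOS-2 arrays of days 0 and 7 alone (adjusted p = 0.000141).
For 221282_x_at the values at days 0, 7 and 14 were 7.07, 7.46 and 7.13 in clone wt22 and 6.68, 6.89 and 7.19 in clone wt36. The SaOS-2 values were 7.14, 7.72 and 7.11 in replicate 1 and 7.0, 7.62 and 6.94 in replicate 2. It rose in SaOS-2 by day 7 (0.60 ± 0.19, adjusted p = 0.0304) and fell by day 14 from that level (-0.65 ± 0.19, adjusted p = 0.0195). The rise was not called in 6 of 23 alternative fits, and the fall was not called in 5 of 23. On arrays labelled Sa/CD99 the change by day 7 was 0.30 (interval -0.12 to 0.72), and the 2 lines' changes differed by -0.30 ± 0.26 (unadjusted p = 0.292 in limma), so a difference between them was not shown. At day 7 the lines differed by -0.49 with no overlap of their arrays, without passing the test (adjusted p = 0.175). Without clone wt22 the difference was -0.78, which again rests on clone wt36 alone (6.89). Clone wt22 (7.46) lay nearer the parental arrays (7.72 and 7.62).

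The RUNX2 probe sets 236858_s_at and 236859_at correlated with r = 0.93 over the arrays and were called in none of the comparisons. Probe set 236858_s_at ranged from 10.27 to 10.72 on arrays labelled Sa/CD99 and from 10.41 to 10.74 on SaOS-2 arrays. For 236859_at the ranges were 9.42 to 9.96 and 9.52 to 9.87, in the same order of lines. Their changes by day 7 lay between -0.01 and 0.11 in both lines, while 232231_at moved by 0.58 or more. Over the 12 arrays 232231_at correlated with the other 4 tested RUNX2 probe sets with r between 0.45 and 0.71. Probe set 221283_at stayed between 4.93 and 5.68, below a signal of 100 on every array. A suffix _x_at or _s_at marks a set whose probes can also match other transcripts or several isoforms.

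SP7 fell in SaOS-2 by day 7 and was not called on arrays labelled Sa/CD99. Its values at days 0, 7 and 14 were 8.31, 8.34 and 8.41 in clone wt22 and 7.86, 7.43 and 7.85 in clone wt36. In SaOS-2 they were 8.73, 7.51 and 8.26 in replicate 1 and 8.67, 7.50 and 8.08 in replicate 2. Clone wt22 was nearly level over the 3 days, while the parental arrays were lower at day 7 than at both other days. The fall in SaOS-2 was 1.19 ± 0.28 (2.29-fold lower at day 7, adjusted p = 0.0102). On arrays labelled Sa/CD99 the change was -0.20 ± 0.28 (adjusted p = 0.61). The difference between these changes was 0.99 (interval 0.08 to 1.90, unadjusted p = 0.0356, adjusted p = 0.999 in limma), which was not called. At day 0 SP7 differed by -0.61 between the lines with no overlap of arrays, and it also did not pass (adjusted p = 0.41). By day 14 the lines differed by -0.05 (interval -0.69 to 0.60).

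DLX3 showed the largest difference between the lines among the members. At day 0 it was 7.08 and 6.82 on arrays labelled Sa/CD99 and 8.13 and 8.16 on SaOS-2 arrays. At day 7 it was 6.18 and 5.88 on arrays labelled Sa/CD99 and 5.91 and 5.72 on SaOS-2 arrays. At day 14 it was 6.24 and 6.25 on arrays labelled Sa/CD99 and 5.73 and 6.17 on SaOS-2 arrays. The 4 arrays above a signal of 100 were those of day 0, and at days 7 and 14 both lines lay below it. The day 0 difference was -1.20 ± 0.17, or 2.29-fold lower on arrays labelled Sa/CD99 (adjusted p = 0.0108). It was not called in the fit of the day 0 arrays alone, nor without clone wt36 or either parental array of day 0 (largest adjusted p = 0.12). At days 7 and 14 the lines differed by 0.21 (adjusted p = 0.47) and 0.29 (adjusted p = 0.41).
DLX3 fell in both lines, in the fit with no filter too (largest adjusted p = 0.0224). Its arrays of days 7 and 14 were below a signal of 100, so the folds rest on dim values there. By day 7 it was 1.90-fold lower on arrays labelled Sa/CD99 (-0.92 ± 0.17, adjusted p = 0.00331) and 5.03-fold lower in SaOS-2 (-2.33 ± 0.17, adjusted p = 6.98e-05). By day 14 it had fallen by 0.70 on arrays labelled Sa/CD99 (adjusted p = 0.0114) and fell by 2.19 in SaOS-2 (adjusted p = 7.56e-05). The changes differed between the lines by 1.41 (interval 0.88 to 1.94) at day 7 and 1.49 (interval 0.96 to 2.02) at day 14. Neither was called over all probe sets (adjusted p = 0.39 and 0.36), and both use the same day 0 arrays as the day 0 difference.

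DLX5 and DLX6 are neighbours on chromosome 7. The DLX5 values at days 0, 7 and 14 were 10.55, 10.98 and 11.08 in clone wt22 and 10.30, 10.44 and 10.62 in clone wt36. On the SaOS-2 arrays DLX5 was 10.45, 10.15 and 10.40 in replicate 1 and 10.28, 10.11 and 10.42 in replicate 2. At days 7 and 14 both arrays labelled Sa/CD99 lay above both SaOS-2 arrays, with the gap set mainly by clone wt22. The differences were 0.58 ± 0.20 at day 7 (adjusted p = 0.14) and 0.44 ± 0.20 at day 14 (adjusted p = 0.30), and neither was called. DLX5 was called in no comparison over time.
DLX6 probe set 242940_x_at was 8.27, 8.14 and 8.0 at days 0, 7 and 14 in clone wt22 and 7.85, 8.03 and 7.57 in clone wt36. In SaOS-2 it was 7.91, 7.35 and 7.57 in replicate 1 and 8.08, 7.08 and 7.62 in replicate 2. At day 7 it was higher on arrays labelled Sa/CD99 by 0.87 ± 0.18, or 1.82-fold (adjusted p = 0.0415), with no overlap. This call was lost in 11 of 22 alternative fits, 8 of them with 1 array left out, where the difference ranged from 0.73 to 1.0 and the adjusted p reached 0.29. The probe set fell in SaOS-2 by day 7 (-0.78 ± 0.18, adjusted p = 0.00904), and on arrays labelled Sa/CD99 it changed by 0.02 (interval -0.38 to 0.43). The difference between these changes was 0.80 ± 0.25 (unadjusted p = 0.0116, adjusted p = 0.999 in limma), which was not called.
The other tested DLX6 probe set, 239309_at, did not separate the lines. It was 7.19, 6.84 and 6.76 at days 0, 7 and 14 in clone wt22 and 6.96, 6.10 and 6.38 in clone wt36. In SaOS-2 it was 7.08, 6.28 and 6.48 in replicate 1 and 7.10, 6.18 and 6.46 in replicate 2. Its difference at day 7 was 0.24 (interval -0.25 to 0.73). It fell in SaOS-2 by day 7 (-0.86 ± 0.22, adjusted p = 0.0130), while on arrays labelled Sa/CD99 the change of -0.60 did not pass (adjusted p = 0.0564). With the clone as a block that change was called (adjusted p = 0.0226 as a random and 0.00675 as a fixed term). Of its 12 arrays 6 were above a signal of 100, namely all those of day 0 and those of clone wt22 at days 7 and 14. It thus passed the signal filter through its day 0 arrays. The third DLX6 probe set, 221289_at, was above 100 on 1 array.

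MSX2 fell in both lines, by both probe sets that were tested, and with no filter too (largest adjusted p = 0.0109). No difference between the lines was called. For 210319_x_at the values at days 0, 7 and 14 were 7.44, 5.86 and 6.24 in clone wt22 and 8.03, 6.60 and 6.68 in clone wt36. In SaOS-2 they were 7.73, 6.07 and 6.32 in replicate 1 and 7.90, 6.13 and 6.48 in replicate 2. All 4 day 0 arrays lay above all 8 later arrays. By day 7 it was 2.83-fold lower on arrays labelled Sa/CD99 (-1.50 ± 0.26, adjusted p = 0.00292) and 3.28-fold lower in SaOS-2 (-1.71 ± 0.26, adjusted p = 0.00149). By day 14 it was 2.42-fold lower on arrays labelled Sa/CD99 (adjusted p = 0.00675) and 2.67-fold lower in SaOS-2 (adjusted p = 0.00518). Neither fall on arrays labelled Sa/CD99 was called in the fit of the arrays of the compared groups alone.
Probe set 205555_s_at moved with it (r = 0.97). Its values at days 0, 7 and 14 were 6.91, 6.20 and 6.19 in clone wt22 and 7.36, 6.46 and 6.30 in clone wt36. In SaOS-2 they were 7.31, 6.06 and 6.43 in replicate 1 and 7.14, 6.13 and 6.36 in replicate 2. By day 7 the change was -0.81 on arrays labelled Sa/CD99 and -1.13 in SaOS-2. By day 14 it was -0.89 on arrays labelled Sa/CD99 and -0.83 in SaOS-2. At days 7 and 14 all its arrays were below a signal of 100, as were 7 of the 8 for 210319_x_at, so these folds also rest on dim values. The differences between lines lay between -0.14 and 0.23 for 205555_s_at and between -0.08 and 0.13 for 210319_x_at. The third probe set, 205556_at, was near 3 in log2 on all arrays, and it was not tested.

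MSX1 moved the other way, on arrays labelled Sa/CD99. Probe set 205932_s_at was 7.95, 8.49 and 8.28 at days 0, 7 and 14 in clone wt22 and 8.29, 8.98 and 8.71 in clone wt36. In SaOS-2 it was 8.34, 8.55 and 8.57 in replicate 1 and 8.44, 8.51 and 8.60 in replicate 2. Each clone was higher at day 7 than at day 0, and the parental arrays differed little between days. The rise by day 7 was 0.62 ± 0.19 on arrays labelled Sa/CD99 (1.53-fold, adjusted p = 0.0321), against 0.14 ± 0.19 in SaOS-2 (adjusted p = 0.59). The rise was not called in 11 of 23 alternative fits, among them that without clone wt36 of day 7, where the value ranged from 0.37 to 0.86. The 2 changes differed by 0.48 (interval -0.12 to 1.08, unadjusted p = 0.105), so no difference between the lines was shown. The other probe set, 228473_at, stayed between 5.26 and 6.03, below a signal of 100.

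TWIST1 changed too little to be tested. Its values at days 0, 7 and 14 were 10.46, 10.25 and 10.50 in clone wt22 and 9.94, 9.93 and 9.82 in clone wt36. The parental values were 9.96, 9.90 and 9.93 in replicate 1 and 9.87, 9.86 and 10.04 in replicate 2. Clone wt22 was above the other 3 arrays on each day, and clone wt36 lay among or near the parental arrays. With no filter the lines differed by 0.28, 0.20 and 0.18 on days 0, 7 and 14 (adjusted p between 0.77 and 0.83), and the SE was 0.22.

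The lines' changes over time were compared directly for all members. Limma called 0 of the 13 interactions at day 7, with 3 members at an unadjusted p under 0.05 (DLX3, DLX6 242940_x_at and SP7), where 0% of all tested probe sets were called. At day 14 it called 0 of 13, with DLX3 alone at an unadjusted p under 0.05, against 0.0155% of all tested. A comparison of day 14 with day 7, chosen after the values of day 7 were seen, called 0 of 13 on arrays labelled Sa/CD99, with 2 at an unadjusted p under 0.05, against 18.6% of all tested in either direction. In SaOS-2 it called 2 of 13, both RUNX2 probe sets and both lower (15.4%, against 18.2% of all tested). After quantile normalization of the tested probe sets neither was called there. SP7 (0.81, adjusted p = 0.0343), MSX2 205555_s_at (0.68, adjusted p = 0.00966) and DLX3 (0.65, adjusted p = 0.0107) were called higher instead.

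The 2 clones lay apart from each other for several members. Clone wt22 was higher than clone wt36 on all 3 days for RUNX2 216994_s_at, SP7, DLX5 and both tested DLX6 probe sets. Clone wt36 was higher on all 3 days for MSX1 205932_s_at and for both tested MSX2 probe sets. The largest gap was that of RUNX2 216994_s_at at day 7, with 8.27 in wt22 and 7.04 in wt36. In the same direction on all days were 8 of 13 tested members (61.5%), against 40.8% of all tested probe sets. The median absolute difference over the members was 0.38 between clones and 0.08 between parental replicates, against 0.20 and 0.07 over all tested probe sets. These are values of 1 pair of clones, given as a description with no test.

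**Figure D4:**
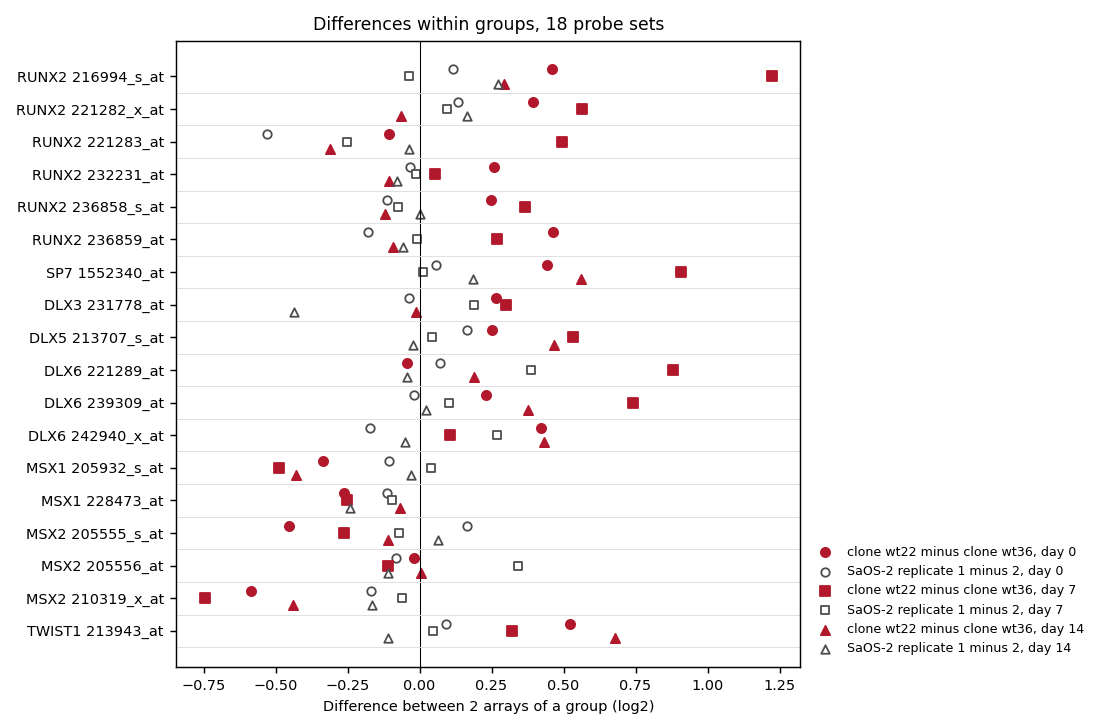
Difference between the 2 arrays of a group (log2, x axis) for the 18 member probe sets, with filled red symbols for clone wt22 minus clone wt36 and open grey symbols for SaOS-2 replicate 1 minus replicate 2 on days 0 (circles), 7 (squares) and 14 (triangles). The DLX5, SP7 and TWIST1 symbols of the clones lie right of 0 and those of MSX1 left of 0 on all 3 days.

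Of 42 tested probe sets of 20 partners and regulators of the RUNX proteins, 1 was called between the lines on day 0, 2 on day 7 and 1 on day 14. Over all tested probe sets 1.47%, 1.81% and 1.46% were called on these days. CBFA2T2, a corepressor of the ETO family, was lower on arrays labelled Sa/CD99 at day 0 (-0.67 ± 0.09, adjusted p = 0.00884). SMURF1, a ubiquitin ligase that marks RUNX2 and SMAD proteins for degradation, was called higher on arrays labelled Sa/CD99 at days 7 and 14. The call was by 212666_at at day 7 (0.66, adjusted p = 0.0230) and by 212668_at at day 14 (0.62, adjusted p = 0.0350). Neither probe set was called on both days. YAP1, a coactivator that binds RUNX2, was lower on arrays labelled Sa/CD99 at day 7 by 224895_at (-0.61, adjusted p = 0.0223). Its tested probe set 224894_at was not called there. RUNX3, the third member of the family, rose by day 7 by 1.81 on arrays labelled Sa/CD99 (adjusted p = 0.000314) and by 1.39 in SaOS-2 (adjusted p = 0.00111).
Among other osteoblast transcription factors limma called 0 of 39 tested probe sets between the lines on each day, with 2, 4 and 3 at an unadjusted p under 0.05 on days 0, 7 and 14. At these shares of all tested, a count of 0 is not a result about these genes. Over time LEF1, a Wnt effector, rose by day 14 by 1.5 on arrays labelled Sa/CD99 and by 1.34 in SaOS-2. GLI3, a Hedgehog effector, rose by day 7 by 1.58 on arrays labelled Sa/CD99 and by 1.34 in SaOS-2. PRRX1 rose by day 14 by 2.61 ± 0.43 on arrays labelled Sa/CD99 and by 1.28 ± 0.43 in SaOS-2. FOSL1 went the other way and changed by day 7 by -1.14 on arrays labelled Sa/CD99 and -0.96 in SaOS-2. On arrays labelled Sa/CD99, 11 of the 39 probe sets rose by day 7 and 1 fell, against 10.4% and 7.78% of all tested. In SaOS-2 6 rose and 2 fell, against 12.8% and 8.63%. The median change by day 7 of the 39 was 0.42 on arrays labelled Sa/CD99 and 0.35 in SaOS-2, against -0.01 and 0.00 over all tested probe sets.

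Other genes of the DLX, MSX and SP families included some that moved like DLX3 and MSX2. Between the lines 1 of 15 tested probe sets was called on day 0, 1 on day 7 and none on day 14. Over all tested probe sets 1.47%, 1.81% and 1.46% were called on these days. By day 7, 3 of the 15 rose and 2 fell on arrays labelled Sa/CD99, against 10.4% and 7.78% of all tested. In SaOS-2 3 rose and 3 fell, against 12.8% and 8.63%. DLX2, a homeodomain factor known from forebrain and jaw development, fell by day 7. The change was -1.54 on arrays labelled Sa/CD99 (adjusted p = 6.0e-05) and -2.50 in SaOS-2 (adjusted p = 6.8e-06). At day 7 it was 1.80-fold higher on arrays labelled Sa/CD99 (0.85 ± 0.12, adjusted p = 0.0101). DLX4 changed by day 7 by -0.77 on arrays labelled Sa/CD99 and -1.37 in SaOS-2. KLF10, a zinc finger factor induced by TGF-beta, rose by day 7 by 1.01 on arrays labelled Sa/CD99 and by 0.90 in SaOS-2. SP6 was lower on arrays labelled Sa/CD99 at day 0 (-0.69 ± 0.11, adjusted p = 0.0213).
For the genes next to DLX5 and DLX6 limma called 0 of 7 tested probe sets between the lines on each day. At an unadjusted p under 0.05 were 1, 2 and 2 on days 0, 7 and 14. With 1.47%, 1.81% and 1.46% of all tested called on these days, a count of 0 is not a result about these genes. ASNS, asparagine synthetase, changed by day 7 by -0.97 on arrays labelled Sa/CD99 and -1.14 in SaOS-2. The long non-coding RNA DLX6-AS1 was above a signal of 100 on 1 array and was not tested.

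Of 18 tested probe sets of 7 helix-loop-helix partners of TWIST1, 5 were called between the lines on day 0, 7 on day 7 and 4 on day 14, against 1.47%, 1.81% and 1.46% of all tested. All were lower on arrays labelled Sa/CD99, and all but 1 were of TCF4. TCF4, an E protein that pairs with TWIST1, was lower on arrays labelled Sa/CD99 on each day, by 5 probe sets at day 0, 7 at day 7 and 3 at day 14. By probe set 212386_at the differences were -0.71 at day 0, -0.71 at day 7 and -0.63 at day 14 (adjusted p = 0.0177, 0.0168 and 0.0316). The ID proteins, which take E proteins away from TWIST1 and are classical targets of bone morphogenetic proteins, fell over time in both lines. By day 7 ID1 changed by -4.12 on arrays labelled Sa/CD99 and -4.78 in SaOS-2. ID3 changed by -2.99 on arrays labelled Sa/CD99 and -3.67 in SaOS-2. At day 14 ID1 was lower on arrays labelled Sa/CD99 (-0.81 ± 0.12, adjusted p = 0.0129).

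Of 33 tested probe sets of 16 osteoblast target genes, 3 were lower on arrays labelled Sa/CD99 at day 0, none was called at day 7 and 2 were lower at day 14, against 1.37% of all tested lower at day 0 and 1.81% and 1.46% called at days 7 and 14. ALPL, the alkaline phosphatase of mineralising matrix, was lower at day 0 by 2 probe sets, 215783_s_at (-0.82, adjusted p = 0.0298) and 1557924_s_at (-0.93, adjusted p = 0.0298). On arrays labelled Sa/CD99 ALPL rose by day 14 by 0.98 (1557924_s_at, adjusted p = 0.0033), and no ALPL rise was called in SaOS-2. Limma called 0 of the 33 interactions at day 14, with 0 at an unadjusted p under 0.05, against 0.0155% of all tested. A difference between the lines in the ALPL change was therefore not shown. IGFBP5, a growth factor binding protein abundant in bone, was lower at day 0 (-0.72) and day 14 (-0.64). FGFR3, a growth factor receptor, was lower at day 14 (-0.77 ± 0.14, adjusted p = 0.0329). FGFR2, a receptor of osteoprogenitors, rose by day 14 by 1.10 on arrays labelled Sa/CD99 (203639_s_at) and by 0.93 in SaOS-2 (203638_s_at). These are the FGFR2 probe sets with the largest called change in each line, so the values are not compared.

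For each called member the genes with the most similar pattern over the 12 arrays were found by Pearson r, given as a description because the arrays share lines and days. RUNX2 232231_at was most like KLF3 (r = 0.99), ZFAND5 (0.98) and RHOBTB3 (0.97). RUNX2 216994_s_at was instead most like TRPS1 (0.97), CAMK2D and SOX4 (0.95 each), and 221282_x_at was most like EDIL3 (0.97), TFRC (0.96) and TRPS1 (0.95). DLX3 was most like PDE4A (0.96), its own family member DLX4 (0.95) and KCNN4 (0.94). MSX2 210319_x_at was most like FAM162A and EGLN3 (0.99 each) and MTFR2 (0.98), and 205555_s_at was most like ALDOC, FAM162A and UNKL (0.98 each). SP7 was most like JARID2 (0.96), PATZ1 (0.91) and OGG1 (0.89). MSX1 was most like PRXL2A and MCC (0.93 each) and NFATC2 (0.92). For DLX6 239309_at these were NARF (0.97), SINHCAF and STX2 (0.95 each), and for 242940_x_at TRIM11 (0.89), ABCF2 (0.87) and SINHCAF (0.85).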

How the data were processed

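Total RNA of 12 samples was hybridized to 1 array each. The deposited values are log2 summaries, 1 per probe set, which the authors obtained by RMA (background correction, quantile normalization over arrays, probe summary). Affy and RMA are the tools in the submitters' notes, without a version. Arrays hold no read depth, and their number limits the precision. Following the methods, probe sets at a signal of 100 or less on at least 9 arrays, and those with an interquartile range no larger than the median of 0.2186, were left out. The 62 control probe sets were also left out. Of 54613 others, 18677 passed the signal filter and 12894 were tested.

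A mean per group was fitted to all 12 arrays with limma 3.58.1 in R 4.3.3 (6 residual and 3.183 prior degrees of freedom), with 1 residual variance for all groups. SEs had a median of 0.14 (2 groups) and 0.20 (interactions). For a given probe set the SE of a change over time is thus the same in both lines. The clones differed more from each other than the parental arrays did, so it can be too small for Sa/CD99. Comparisons, 9 in all, set Sa/CD99 against SaOS-2 per day, day 7 or 14 against day 0 per line, and these changes against each other. Day 14 against day 7 was added after seeing the data. Values after ± are SEs and intervals are 95%, per the same fit. Gene names come from the platform annotation, updated by gene ID, and 5 of 9 member genes have a RefSeq promoter. The text names all member probe sets, up to 4 called genes per list, and the 3 genes most like each called member. The members and lists were chosen with earlier results of these data known. The script was tested on simulated data. A clone number marks the same transfectant on each day. Over tested probe sets the gap between clones on 1 day correlated with that on another (r = 0.58, 0.32 and 0.63), and the gap between parental numbers with -0.04, 0.24 and -0.05. Alternatives covered filters, normalization, prior, array weights, arrays fitted, fold threshold, the replicate block and each array left out.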

Additional observations from a re-analysis of the deposited data

How the results depend on the processing

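The 22 called member values kept their direction in every alternative. Of 240 values under settings other than leaving out an array 217 were still called, and of 264 with an array left out 219 were. The falls of DLX3 and MSX2 in SaOS-2 were called throughout. The rest were not called in 1 to 11 fits each, most often DLX6 242940_x_at at day 7 and MSX1 at day 7.

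With the arrays of the compared groups alone, 0 members were called between the lines on days 0 and 7, 0 by day 7 and 0 by day 14 on arrays labelled Sa/CD99. In SaOS-2 it called 8 by day 7, where the fit of all arrays called 7, and 4 by day 14 in place of 3. This fit leaves 2 residual degrees of freedom. With array weights by line (0.38 for Sa/CD99 and 2.61 for SaOS-2) 0 members were called between the lines on day 7 and 3 by day 7 on arrays labelled Sa/CD99, where the unweighted fit called 1 and 5. With no filter 0 were called between the lines on day 7. The signal filter alone called 1 between days 14 and 7 in SaOS-2, in place of 2. Quantile normalization of the tested probe sets called 3 there, none of them the RUNX2 probe sets and all higher (SP7, MSX2 205555_s_at and DLX3). Between the same days on arrays labelled Sa/CD99, 1 member was called after quantile normalization of the tested probe sets and 1 by adjusted p alone, in place of 0. The cause was not tested.

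With 1 array left out the counts of called members ranged from 0 to 1 between the lines on day 0, where clone wt36 and each parental array of day 0 decided it. On day 7 they ranged from 0 to 2. The 2 were RUNX2 probe sets, from the fit without clone wt22 of day 7, where clone wt36 alone stood for Sa/CD99. DLX6 was not among them. By day 7 they ranged from 3 to 6 on arrays labelled Sa/CD99 and from 3 to 8 in SaOS-2. Between days 14 and 7 they ranged from 0 to 1 on arrays labelled Sa/CD99 and from 0 to 3 in SaOS-2.

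The replicate block, with the clone or parental number as a random term (correlation 0.19), called 1 member between the lines on days 0 and 7 each, and 6 by day 7 on arrays labelled Sa/CD99, as did a fixed block. Beside the DLX6 239309_at change given above, the parental number as a block gave calls for DLX6 239309_at at day 14 (adjusted p = 0.0213), for SP7 between days 14 and 7 (adjusted p = 0.0298) and, as a fixed term, for RUNX2 216994_s_at at day 7 (adjusted p = 0.0233), all in SaOS-2. It ended no call and moved no count of called members by over 1.5 times.

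Counts over all tested probe sets moved more. Between the lines 189, 234 and 188 were called on days 0, 7 and 14. The compared groups alone gave 15, 12 and 6. Without either parental array of the day there were 13 and 14 on day 0, 23 and 21 on day 7, and 20 and 18 on day 14. Quantile normalization gave 122, 323 and 147, and no filter 281, 298 and 234. Quantile normalization also moved the share of higher calls, with 123 of 323 on day 7 in place of 49 of 234. By day 14 it gave 1032 of 2141 on arrays labelled Sa/CD99 in place of 824 of 2495, and 1057 of 1954 in SaOS-2 in place of 777 of 1919. Signals at or below 100 limit what the folds of DLX3, DLX6 239309_at and MSX2 at days 7 and 14 can show.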
